A study of Mus musculus with 2 samples.

Results

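The Bcl2 family decides whether a cell opens its mitochondrial outer membrane and dies by apoptosis. Survival members such as Bcl2, Bcl2l1 (Bcl-x), Bcl2l2 (Bcl-w) and Mcl1 hold the effectors Bax and Bak1 inactive, and the effectors, once released, form pores through which cytochrome c leaves the mitochondria. The BH3-only members Bad, Bid, Bcl2l11 (Bim) and Bbc3 (Puma) sense stress and either block the survival members or activate the effectors. In the testis the family is known for setting how many germ cells are removed during spermatogenesis.

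These 10 genes were chosen by name, as 4 survival members, 2 effectors and 4 BH3-only members, among the 14450 genes that had a sense tag of their own in either library. All 10 were listed in both libraries. The study compared digital gene expression (DGE) libraries of a pair of mouse male germ cell lines, with 1 library each. GC-1spg came from type B spermatogonia of a mouse aged 10 days and was transformed with pSV3-neo, and its label places it past type B spermatogonia but short of the primary spermatocyte. The GC-2spd (ts) line came from spermatocytes of a mouse aged 6 weeks and was transformed with SV40 large T antigen, and its label describes a premeiotic arrest and a loss of the ability to differentiate. Both were grown untreated in DMEM with serum, so the cells of both lines are immortalised cultures and not testis cells.

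In DGE the enzyme NlaIII cuts cDNA at CATG and the 17 bases beyond the site nearest the poly(A) tail are read, which gives a tag of 21 bases. The files gave 5072149 clean tags for GC-1spg and 4726808 for GC-2spd (ts), so that 1 copy equalled 0.197 and 0.212 TPM (tags per 1000000 clean tags). Tags listed once had been removed. Where values come in pairs without names, the first is that of GC-1spg and the second that of GC-2spd (ts), and a range after a value is its exact 95% interval. With 1 library per line no difference below has a replicate check. Each test compares these libraries and not the cell lines, and each interval covers counting error only. PCR copies could not be told from separate molecules, so the intervals may be too narrow even for counting error. None of 12 germ cell markers (Ddx4, Dazl, Mael, Tex101, Sycp1, Sycp3, Stra8, Kit, Zbtb16, Dmrt1, Sohlh1 and Tex14) had a sense tag of its own in either library. With tags shared with other genes counted, Sycp1 had 10 and 112 copies, Sycp3 had 2 and 0, and the others had none. Of 9 fibroblast markers 8 were listed, summing to 3007 and 1633 TPM, with Col1a1 at 2063 and 513 TPM, Vim at 194 and 613 TPM, and Thy1 at 0 in both. Of 7 Sertoli cell markers 6 were listed, summing to 336 and 97.7 TPM, with Clu at 178 and 55.4 TPM, Wt1 at 122 TPM and 0, and Rhox5 at 0 in both. By the test used for the members 3 of these were lower in GC-2spd (ts) and 1 was higher, Gata4 at 5.72 and 29.2 TPM, which was chosen for mention after its values were seen. Of 6 Leydig cell markers only Star and Cyp11a1 were listed, at 0.789 and 1.06 TPM together, with Cyp17a1, Hsd3b1, Insl3 and Lhcgr at 0 in both. The macrophage markers Adgre1, Csf1r, Ptprc and Cd68 were all at 0. The part of cell identity in the values below was not tested.

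The tag with the most copies of each member is shown, since for most members it carried the larger part of the level. For Bcl2l11 it held only 17 of 64 and 6 of 13 copies, and for Bad 4 of 10 copies in GC-1spg, the same as another tag. Capitals mark the NlaIII site.

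Bcl2: CATGtctgtctgaaaaaataa
Bcl2l1: CATGactgagggaccaatggg
Bcl2l2: CATGctctgctagcagacctt
Mcl1: CATGtacattctatctgggtg
Bax: CATGgcagacagtgaccatct
Bak1: CATGacctacttcacccccac
Bad: CATGgaggcgcaggggctatg
Bid: CATGacctttgggtgagtata
Bcl2l11: CATGcgggtcctgtccacacg
Bbc3: CATGatttttgtatgtttcct

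Of these 10 tags 8 lay in a 3′ UTR, and 9 were at the CATG site nearest the end of an annotated transcript. The exception for position was Bid, whose tag was at site 3 from the end. The tag of Bad was nearest the end in some of its transcripts only. In another it lay 1257 bases from the end, with a further site at 939 bases. The exceptions for region were the tags of Bax and Bad, which lay in coding sequence. Positions are those of GRCm38 from the GENCODE M21 annotation.

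Bcl2l11 was the only member to pass both thresholds between the libraries, a false discovery rate (FDR) no higher than 0.001 and a log2 ratio beyond 1 in either direction, and it was lower in GC-2spd (ts). Mcl1 and Bid were higher in GC-2spd (ts) and Bcl2l1 was lower, each past the FDR threshold but not the fold threshold. The other 6 members did not pass the FDR threshold. The count of 1 in 10 stands beside a background of 19.5% of all genes called (2817 of 14450), of which 11.7% of genes were higher and 7.84% lower in GC-2spd (ts). Under TMM scaling the balance over all genes turned, with 1292 genes higher and 1443 lower, against 1684 and 1133 here. The 4 members past the FDR threshold at any size (2 higher and 2 lower) stand beside a background of 32.7% of genes, 19.9% higher and 12.8% lower. The median log2 ratio of the 10 members, with 0.5 tags added to each count, was -0.17, against 0.13 over all genes tested.

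**Figure D1:**
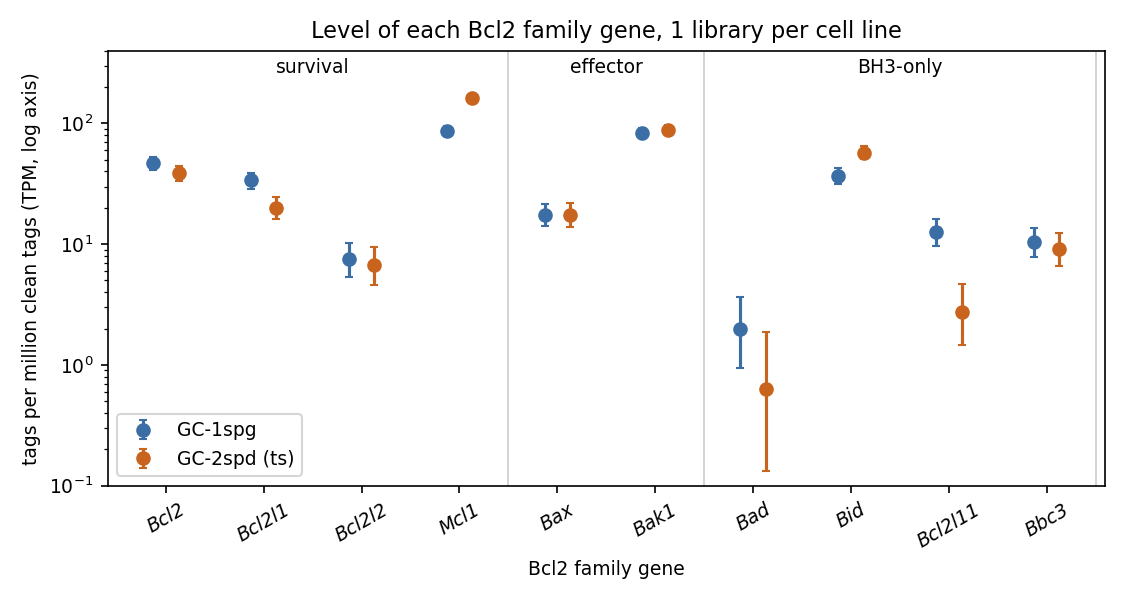
Level of each Bcl2 family gene in TPM on a log axis, with GC-1spg in blue and GC-2spd (ts) in orange, 1 library each. Bars are exact 95% Poisson intervals of the count. Mcl1 and Bak1 were the highest members in both libraries and Bad the lowest, and the intervals of Bcl2l11 are well apart.

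Among the survival members, Mcl1, a short-lived protein that binds Bak1 and Bim, was the most abundant. It had 439 copies (86.6 TPM, 78.6 to 95) and 768 copies (162 TPM, 151 to 174). The GC-2spd (ts) library was 1.88-fold higher, a log2 ratio of 0.91 (0.74 to 1.08), and the two-sided Audic-Claverie test over all genes gave an FDR of 1.3e-25. The interval reached across the fold threshold of 1. Counting only the CATG site nearest the 3′ end of each transcript, the log2 ratio was 1.15 and Mcl1 passed both thresholds (257 and 531 copies).

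The copies of Mcl1 came from 14 sense tags. The ratios at its main sites were unlike in size, though the test of the main tag's share, given below, did not pass its threshold. The main tag, at chr3:95663016-95663036 on the plus strand in the 3′ UTR of exon 3, began 161 bases before the transcript end and had 252 and 511 copies, a log2 ratio of 1.12 (0.90 to 1.35). The second tag lay at chr3:95661857-95661877, 1320 bases before the end at site 7, and had 155 and 176 copies, a log2 ratio of 0.29 (-0.03 to 0.61). A tag further upstream, at chr3:95661079-95661099, had 15 and 35 copies.

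Mcl1, 161 bases from the end: CATGtacattctatctgggtg
Mcl1, 1320 bases from the end: CATGgtgctattcactgggtt
Mcl1, 2098 bases from the end: CATGgagaaggacttctagaa

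The main tag held 57.4% (52.6 to 62.1, exact binomial) and 66.5% (63.1 to 69.9) of the Mcl1 copies. Fisher's exact test of this share gave p = 0.0019, with an FDR of 0.0153 over 7645 genes, which did not pass the threshold of 0.001. Exact matches alone gave 68.1% in GC-2spd (ts) and an FDR of 0.00269. No member passed this test, beside a background of 7.69% of genes called. It covered the 8 members that had at least 2 tags and 20 copies in each library (Bad and Bcl2l11 had too few). The test set the main tag against all other tags, and not site against site. The 18 Mcl1 copies with 1 mismatch, all in GC-2spd (ts), lay at the main site but counted against its tag. Counted by site, the main site had 252 and 529 copies. The p-values of these 8 members ran from 0.0019 for Mcl1 to 0.532 for Bak1.

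Bcl2, the founding survival member, which resides on mitochondria and the endoplasmic reticulum, had 237 copies (46.7 TPM, 41.0 to 53.1) and 182 copies (38.5 TPM, 33.1 to 44.5). The log2 ratio was -0.28 (-0.57 to 0.01) with an FDR of 0.0942, so that no difference could be called. Its main tag, at chr1:106538199-106538219 on the minus strand, began 42 bases before the end of the longer of its 2 transcripts and had 151 and 130 copies. The remaining copies were spread over 9 further sense tags in GC-1spg, and 5 of these were also listed in GC-2spd (ts). One of these, at chr1:106713054-106713074 in the 5′ UTR, had 30 and 14 copies, a log2 ratio of -0.998 (-2.03 to -0.04).

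Bcl2l1, which encodes the survival protein Bcl-xL and, by splicing, the death-promoting Bcl-xS, was lower in GC-2spd (ts). It had 171 copies (33.7 TPM, 28.9 to 39.2) and 95 copies (20.1 TPM, 16.3 to 24.6). The log2 ratio was -0.75 (-1.12 to -0.38), with an FDR of 1.4e-04. The main tag, at chr2:152781370-152781390 on the minus strand, had 133 and 82 copies, a log2 ratio of -0.60 (-1.01 to -0.19). The second, at chr2:152782032-152782052, had 34 and 7 copies, a log2 ratio of -2.18 (-3.60 to -0.98). It began 1381 bases before the end of the longest 3′ UTR but was the last site of a shorter annotated transcript, 642 bases before its end.

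Bcl2l1, second tag: CATGcaactcacgccccttgc

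Both Bcl2l1 tags lie in the 3′ UTR of exon 3, which the long and the short splice form share, so the tags do not tell Bcl-xL from Bcl-xS.

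Bcl2l2, a survival member needed for sperm production in adult mice, had few copies, 38 (7.49 TPM, 5.30 to 10.3) and 32 (6.77 TPM, 4.63 to 9.56). The log2 ratio was -0.15 (-0.87 to 0.57) with an FDR of 0.754, and a difference within this interval was not detectable at this depth. Its 2 sense tags were listed in both libraries. They had 31 and 23 copies at chr14:54887571-54887591 and 7 and 9 copies at chr14:54884979-54884999.

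**Figure D2:**
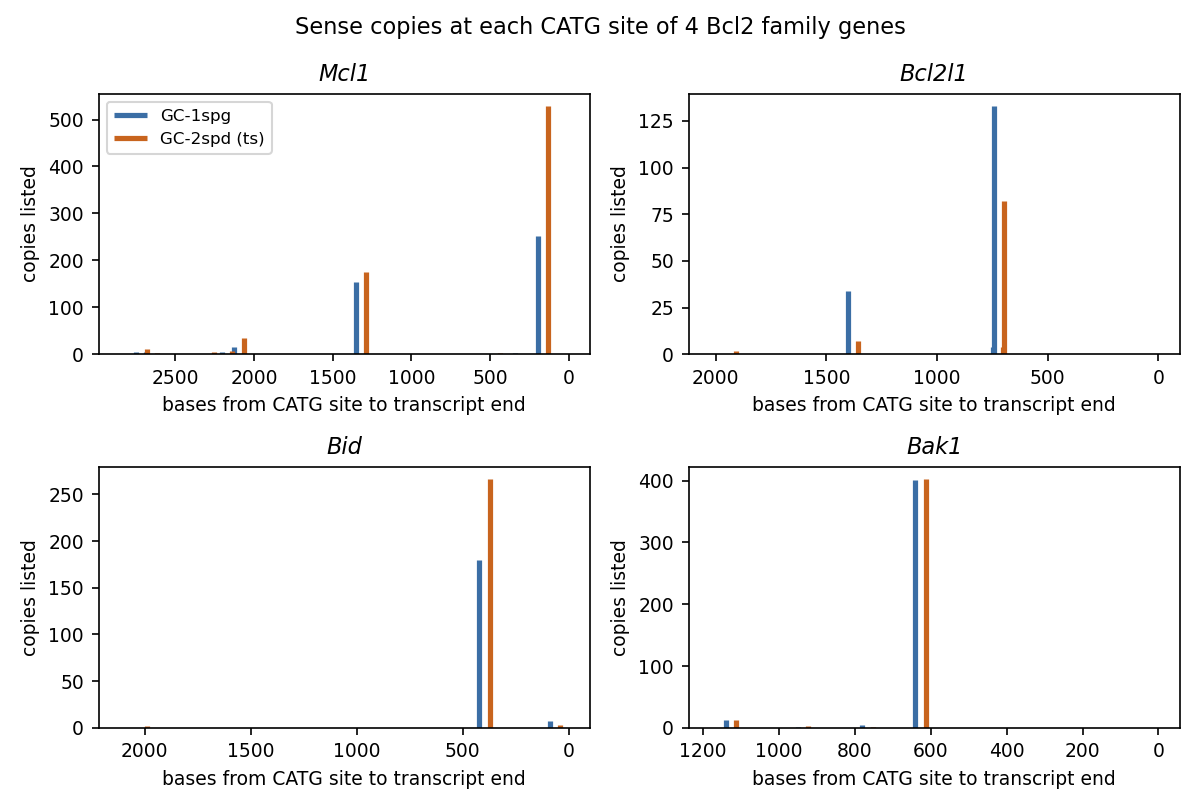
Sense copies at each CATG site of Mcl1, Bcl2l1, Bid and Bak1, plotted against the distance in bases from the site to the transcript end (0 at the right), with GC-1spg in blue and GC-2spd (ts) in orange and the lines of a site set slightly apart. The Mcl1 site at 161 bases had 252 and 511 copies without mismatch and that at 1320 bases 155 and 176, the Bcl2l1 site at 1381 bases had 34 and 7 copies, and Bid and Bak1 had nearly all copies at 1 site.

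No difference could be called for either effector. Bak1, which sits in the mitochondrial membrane, had 420 copies (82.8 TPM, 75.1 to 91.1) and 419 copies (88.6 TPM, 80.4 to 97.6). Its log2 ratio was 0.10 (-0.10 to 0.30) with an FDR of 0.445. Nearly all copies belonged to 1 tag, at chr17:27020416-27020436 on the minus strand in the 3′ UTR of exon 6, with 401 and 396 copies.

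Bax, which moves from the cytosol to mitochondria when activated, had 89 copies (17.5 TPM, 14.1 to 21.6) and 83 copies (17.6 TPM, 14.0 to 21.8). The log2 ratio was 0.00 (-0.45 to 0.45) with an FDR of 1. Its main tag, at chr7:45461915-45461935 on the minus strand in the coding part of exon 6, had 84 and 75 copies. Other Bax tags were shared with other genes and were not counted: they summed to 126 and 171 copies, of which the tag below, found in 45 genes, held 121 and 154.

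Bax, shared tag, not counted: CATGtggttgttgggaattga

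With these shared copies the log2 ratio of Bax was 0.34. The copies of the shared tag could not be divided among its genes. Within Bax it lay in only 1 of 6 annotated transcripts, and that transcript has no coding sequence. Bak1 exceeded Bax 4.72-fold (3.75 to 6.00) and 5.05-fold (3.98 to 6.47), and it made up 82.5% and 83.5% of the summed effector copies. With shared tags counted the ratio was 1.99-fold and 1.69-fold and the share 66.6% and 62.8%.

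Among the BH3-only members Bcl2l11 fell and Bid was higher. Bcl2l11 encodes Bim, which binds every survival member and can activate Bax and Bak1. It had 64 copies (12.6 TPM, 9.72 to 16.1) and 13 copies (2.75 TPM, 1.46 to 4.70). The GC-1spg library was 4.59-fold higher, a log2 ratio of -2.20 (-3.18 to -1.32) with an FDR of 5.9e-08.

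The copies of Bcl2l11 were spread over 9 sense tags, which are parts of the same totals and not separate evidence. All 9 had fewer copies in the GC-2spd (ts) library, where 5 of them were not listed. These 5 entered through GC-1spg alone, and tags seen once had been removed from both files. The most abundant, at chr2:128162138-128162158 on the plus strand, had 17 and 6 copies. The next, at chr2:128160897-128160917, had 12 and 3 copies. A tag at chr2:128131159-128131179, 337 bases before the end of a transcript that ends upstream of the main 3′ end, had 12 copies and 0.

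Bcl2l11, 410 bases from the end: CATGcgggtcctgtccacacg
Bcl2l11, 1651 bases from the end: CATGtgaggtttgtaaatagt
Bcl2l11, alternative 3′ end: CATGtccccctctcctctgat
Bcl2l11, 4030 bases from the end: CATGgccgagttttcagtaaa

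With a coefficient of variation between replicates of 0.2 assumed for the libraries, edgeR's exact test gave Bcl2l11 an FDR of 3.32e-03, and with 0.4 an FDR of 0.287. With 0.1 it was still called, while Bid had an FDR of 0.0327, Bcl2l1 one of 0.0266 and Mcl1 one of 3.1e-04.

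Bid, which caspase 8 cleaves to carry death receptor signals to mitochondria, was the most abundant BH3-only member in both libraries. It had 187 copies (36.9 TPM, 31.8 to 42.5) and 271 copies (57.3 TPM, 50.7 to 64.6). The log2 ratio was 0.64 (0.36 to 0.91) with an FDR of 1.4e-05. Nearly all copies came from the tag at chr6:120893230-120893250 on the minus strand, 397 bases before the transcript end, with 178 and 266 copies. The site nearest the end, at 65 bases, had 7 and 3 copies at chr6:120892898-120892918, so counting sites nearest an end alone left Bid with 7 and 5 copies and a log2 ratio of -0.38.

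Bid, 397 bases from the end: CATGacctttgggtgagtata
Bid, 65 bases from the end: CATGcacttttagaatatgaa

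Bbc3, the p53 target known as Puma, had 53 copies (10.4 TPM, 7.83 to 13.7) and 43 copies (9.10 TPM, 6.58 to 12.3). The log2 ratio was -0.20 (-0.82 to 0.41) with an FDR of 0.592. Its main tag, at chr7:16318157-16318177, began 49 bases before the transcript end and had 51 and 43 copies.

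Bad, which growth factor signalling holds inactive by phosphorylation, was hardly measurable in these libraries. It had 10 copies (1.97 TPM, 0.945 to 3.63) and 3 copies (0.635 TPM, 0.131 to 1.85), with a log2 ratio of -1.64 (-4.13 to 0.32) and an FDR of 0.136. The last CATG of 4 of its 9 annotated transcripts lay 6, 7, 7 and 13 bases before the transcript end, so that a tag from it would run into the poly(A) tail.

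Bad, last site 7 bases from the end, with poly(A): CATGtgcaaaaaaaaaaaaaa
Bad, last site 6 bases from the end, with poly(A): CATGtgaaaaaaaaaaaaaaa
Bad, last site 13 bases from the end, with poly(A): CATGtgccgccgcaaaaaaaa

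The first of these tags belonged to 15 genes with 817 and 222 copies, the second belonged to 111 genes with 4699 and 1483 copies, and the third, which belonged to Bad alone, was at 0 in both. The copies of the first and second could not be divided among their genes. The 10 and 3 copies counted for Bad came from 3 sites further upstream. With all transcripts extended by poly(A), Bad had 12 and 3 copies.

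**Figure D3:**
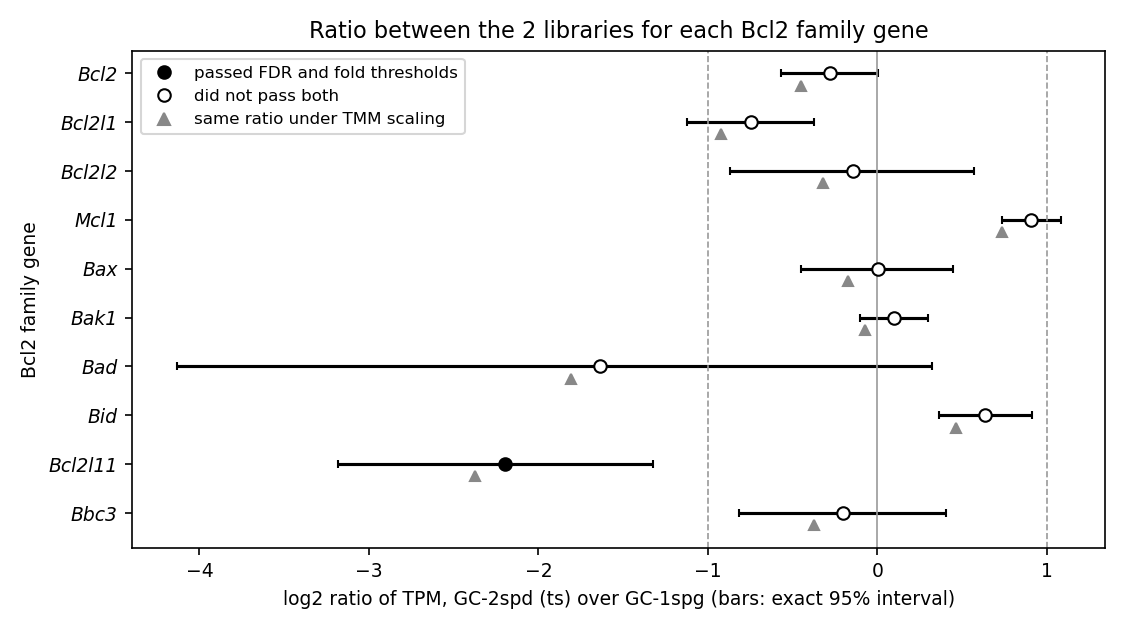
Log2 ratio of TPM, GC-2spd (ts) over GC-1spg, of each Bcl2 family gene with its exact 95% interval. Dashed lines mark the fold threshold, a filled circle marks the gene that passed both thresholds, and triangles give the same ratio under TMM scaling. Bcl2l11 at -2.20 alone is filled, Mcl1 lies at 0.91, and TMM moves every gene to the left by 0.17.

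Scaling mattered for the small differences. TMM, which edgeR computes to balance the bulk of genes, moved every log2 ratio by -0.17, and the median of ratios moved it by -0.16. With TMM, Mcl1 stood at 0.73, Bid at 0.46, Bcl2l1 at -0.92 and Bcl2l11 at -2.37. The Audic-Claverie FDR of Bid then became 0.00233 and no longer passed, and the ratios of Bax and Bak1 were below 0 without passing any threshold.

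The order of the levels, all in TPM and from 1 tag site per transcript in principle and not by length, began with Mcl1 and Bak1 and ended with Bad in both libraries. In GC-1spg it ran Mcl1, Bak1, Bcl2, Bid, Bcl2l1, Bax, Bcl2l11, Bbc3, Bcl2l2 and Bad. Of the 9 pairs of neighbours 5 did not differ beyond counting error: Mcl1 and Bak1, Bid and Bcl2l1, Bax and Bcl2l11, Bcl2l11 and Bbc3, and Bbc3 and Bcl2l2. In GC-2spd (ts) it ran Mcl1, Bak1, Bid, Bcl2, Bcl2l1, Bax, Bbc3, Bcl2l2, Bcl2l11 and Bad, and only 2 pairs did not differ, Bcl2l1 and Bax, and Bbc3 and Bcl2l2. Mcl1 stood 1.05-fold (0.912 to 1.20) and 1.83-fold (1.63 to 2.07) above Bak1. This order rests on tags of a single gene. With shared sense tags counted Bax had 215 and 254 copies, above Bcl2l1 (171 and 95) in both libraries. Bcl2 had 237 and 182, so Bax then stood above it in GC-2spd (ts) only. Most of the added Bax copies came from the tag found in 45 genes, so they could not be assigned to Bax. The place of Bad leaves out tags that run into poly(A) and are shared with other genes.

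By role, the survival sum alone had an interval that excluded 0. Survival members summed to 174 and 228 TPM, a log2 ratio of 0.39 (0.26 to 0.51), which was 0.21 under TMM. Without Mcl1 the same sum was 87.9 and 65.4 TPM, a log2 ratio of -0.43 (-0.64 to -0.22), which has the opposite direction. Mcl1 was the only survival member with a log2 ratio above 0, so leaving it out fixed this direction in advance. Effectors summed to 100.4 and 106 TPM, a log2 ratio of 0.08 (-0.10 to 0.26), or -0.092 under TMM. BH3-only members summed to 61.9 and 69.8 TPM, a log2 ratio of 0.17 (-0.05 to 0.40), or -0.0003 under TMM. Bid alone of them was higher in GC-2spd (ts), at a log2 ratio of 0.64. The ratios of Bad (-1.64), Bcl2l11 (-2.20) and Bbc3 (-0.20) were below 0, so this sum hides members that went in opposite directions.

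**Figure D4:**
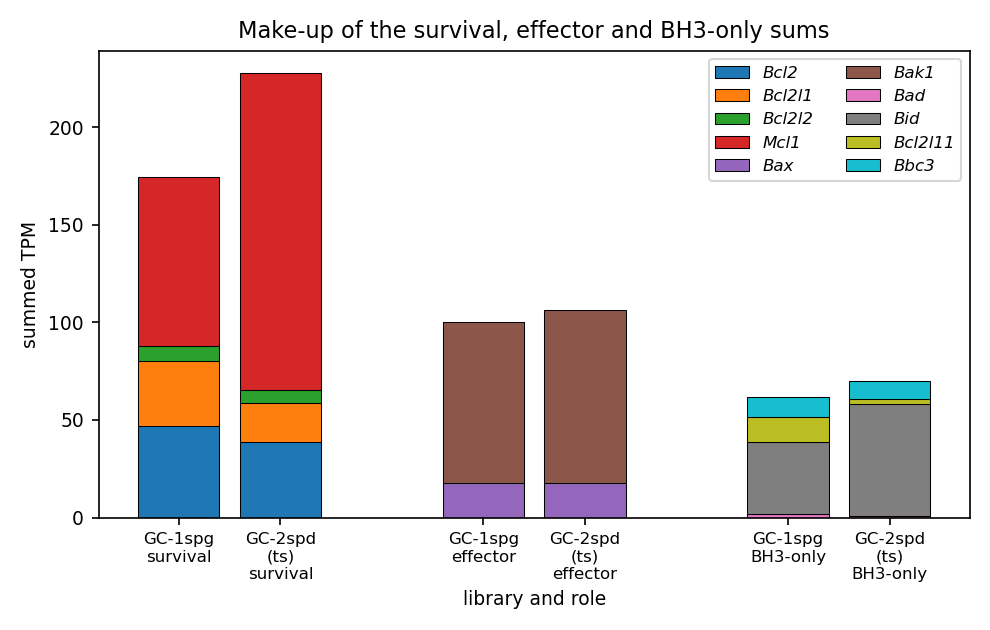
Summed TPM of the survival, effector and BH3-only members in each library, stacked by gene. Mcl1 made up 49.6% and 71.3% of the survival sum, and Bid made up 59.6% and 82.1% of the BH3-only sum.

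Within the survival and BH3-only roles the shares of single members differed between the libraries. Mcl1 accounted for 49.6% (46.3 to 53) and 71.3% (68.5 to 74.0) of survival copies, while Bcl2 went from 26.8% to 16.9% and Bcl2l1 from 19.3% to 8.82%. Bid accounted for 59.6% (53.9 to 65.0) and 82.1% (77.6 to 86.1) of BH3-only copies. Bcl2l11 accounted for 20.4% (16.1 to 25.3) and 3.94% (2.11 to 6.64) of them. The copies of Mcl1 exceeded those of Bcl2l11 6.86-fold (5.27 to 9.06) and 59.1-fold (34.3 to 112). Bid exceeded Bcl2l11 2.92-fold (2.19 to 3.94) and 20.9-fold (12 to 39.7).

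The genes around the 10 members are given by lists of pathway genes, whose counts of called genes stand beside the background of 19.5% of all genes, 11.7% higher and 7.84% lower. Among 15 other relatives of the family 8 were listed, with Bok, an effector-like protein, called higher (53 and 111 copies, log2 ratio 1.17, FDR 3.4e-06). The BH3-only genes Bmf (26 and 3 copies, log2 ratio -3.01, FDR 7.2e-05) and Pmaip1 (55 and 16 copies, log2 ratio -1.68, FDR 3.7e-05) were called lower. Bok lost its call under TMM, and with an assumed variation of 0.1 neither Bok nor Pmaip1 was called. The other 7 relatives, Bcl2a1a, Bcl2a1b, Bcl2a1d, Bcl2l10, Bcl2l14, Hrk and Bik, had no sense tag of their own in either library.

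Downstream of the mitochondria, none of the 8 apoptosome and caspase genes was called in either direction. Casp8, which death receptors activate, had 214 and 133 copies, a log2 ratio of -0.58 with an FDR of 6.6e-04. It passed the FDR threshold but not the fold threshold. Of 7 inhibitors of apoptosis and their antagonists, Xiap (62 and 142 copies, log2 ratio 1.30) and Birc2 (17 and 48 copies, log2 ratio 1.60) were called higher and none lower. Xiap binds and blocks caspases. Birc2 lost its call under TMM and with an assumed variation of 0.1.

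Upstream, the death receptor list of 10 genes had 7 listed. Fas, the receptor for Fas ligand, fell from 166 to 12 copies (log2 ratio -3.69, FDR 1.9e-32), and Tnfrsf10b, the TRAIL receptor, rose from 16 to 56 copies (log2 ratio 1.91, FDR 2.5e-06). Where tags shared with other genes were counted, Tnfrsf10b had 11113 and 6898 copies, which is the opposite direction, and lost its call. Fasl, Tnf and Tnfsf10 had no sense tag of their own.

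In the list of 17 genes of p53 and its targets, 3 were called higher and 3 lower. Trp53 itself had 20 and 397 copies (log2 ratio 4.41, FDR 3.6e-96), and 718 and 26674 copies with shared tags. GC-2spd (ts) is known as a line that was also given a temperature-sensitive p53 gene, which the labels do not mention, and whether these tags came from it was not tested. Zmat3 (61 and 162 copies) and Plk2 (88 and 210) were also higher, at log2 ratios of 1.51 and 1.36. Mdm4, an inhibitor of p53 (589 and 256 copies, log2 ratio -1.10), Perp (561 and 129, -2.02) and Btg2 (87 and 32, -1.34) were lower. Bbc3, itself a p53 target, did not pass the test. Mdm4 lost its call with shared tags and Btg2 with 3′-most sites alone.

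Of 12 mitochondrial channels and bound partners of the family, Ywhag (669 and 1269 copies, log2 ratio 1.03) and Sfn (6 and 39, 2.80), adaptors that can hold phosphorylated Bad in the cytosol, were called higher and none lower. Ywhag was just past the threshold and lost its call under each of the 3 other scalings and with antisense tags added. The more abundant Ywhaz (4186 and 2585 copies, log2 ratio -0.59), Ywhaq (1729 and 947, -0.77) and Ywhab (2600 and 1889, -0.36) were lower. They passed the FDR threshold but not the fold threshold, and were chosen for mention after their values were seen. Ywhae (log2 ratio 0.06) and Ywhah (-0.09) did not pass the FDR threshold. The whole list summed to 4096 and 3760 TPM. None of the 6 genes of Mcl1 turnover was called. Its most abundant, Huwe1, a ubiquitin ligase of Mcl1, had 542 and 950 copies (log2 ratio 0.91, FDR 1.2e-31). Usp9x, which removes ubiquitin from Mcl1, had 447 and 565 (0.44, FDR 6.7e-06). Huwe1 and Usp9x thus passed the FDR threshold but not the fold threshold. Of 10 genes of the FoxO and growth factor arm, Akt2, a kinase that phosphorylates Bad and FoxO factors, was called lower (372 and 166 copies, log2 ratio -1.06).

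**Figure D5:**
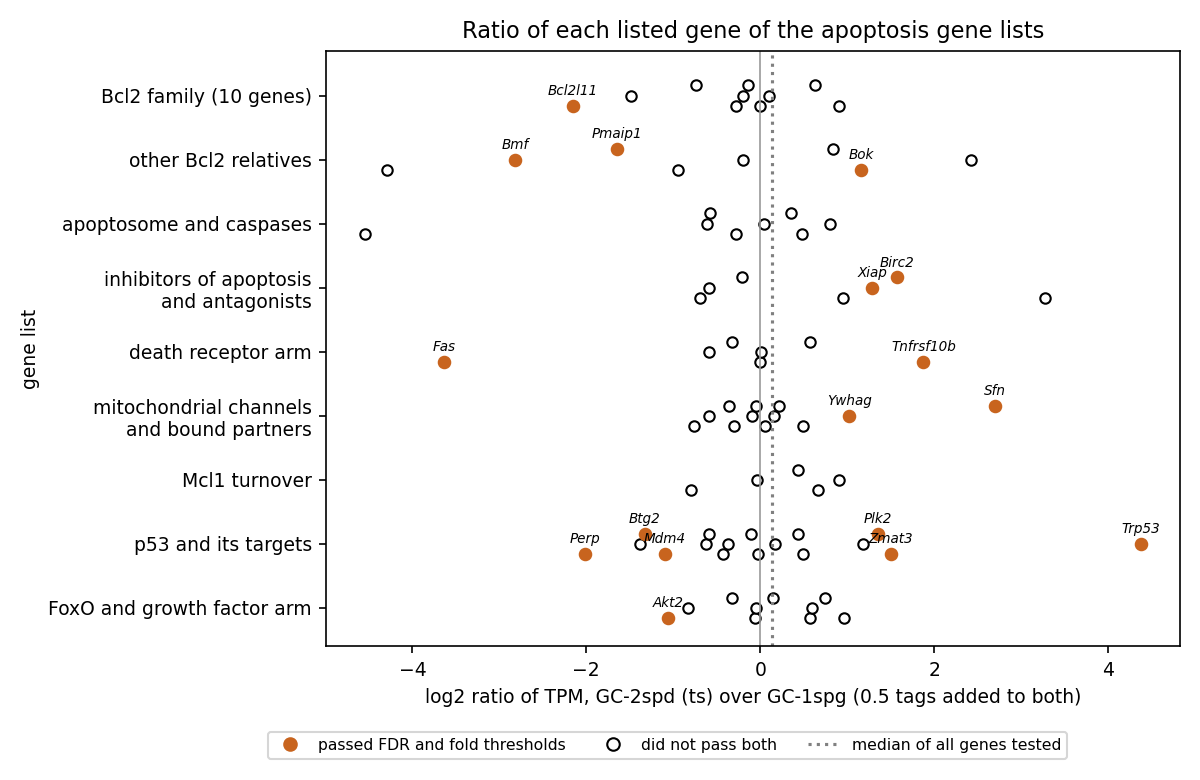
Log2 ratio of TPM, GC-2spd (ts) over GC-1spg with 0.5 tags added to both counts, of each listed gene of the Bcl2 family and of the 8 surrounding lists. Filled circles passed the FDR and fold thresholds and are named, and the dotted line is the median of all genes tested at 0.13. Trp53 lies farthest to the right of the named genes and Fas farthest to the left.

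With a coefficient of variation of 0.2 assumed in edgeR's exact test, only Fas, Trp53 and Perp of the genes called in these 8 lists were still called. By median, the lists lay on both sides of the median of all genes, 0.13. The medians of the log2 ratio with 0.5 tags added were -0.57 for the other relatives, -0.12 for apoptosome and caspases, 0.95 for inhibitors of apoptosis and their antagonists (of which Htra2 had only 0 and 4 copies), -0.01 for the death receptor arm, 0.01 for channels and partners, 0.44 for Mcl1 turnover, -0.10 for p53 and its targets and 0.05 for the FoxO arm. The summed level of the inhibitors and antagonists went the other way from their median, with 656 and 487 TPM. Their median was the value of Birc3, which had 33 and 60 copies and, with shared tags counted, 1247 and 1273.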

How the data were processed

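RNA of each cell line was made into 1 NlaIII DGE library. Adaptor and low-quality tags and tags seen once were removed by the authors, who deposited for each distinct tag its copy number (a count) and its TPM (copies per 1000000 clean tags). Per the paper the authors matched tags to mouse Unigene with up to 1 mismatch. The aligner and its version are not given in the sources used here. No per-sample column was left unused.

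Here all CATG tags of the 141767 GENCODE M21 transcripts (GRCm38, 573182 sense tags) formed the reference. A tag was matched exactly or, failing that, with 1 mismatch, and the copies of sense tags of a single gene were summed per gene, 54.7% (GC-1spg) and 57.9% (GC-2spd (ts)) of clean tags. All clean tags were the base of TPM. All 14450 genes were tested on their counts with the two-sided Audic-Claverie test with Benjamini-Hochberg adjustment, and called genes had an FDR no higher than 0.001 and a log2 ratio of 1 or more in size, where 0.01 TPM replaced 0. The quasi-likelihood test of edgeR could not be fitted with 1 library per line. Ratio intervals are exact conditional binomial and level intervals exact Poisson, at 95%. Site use was tested with Fisher's exact test on genes with at least 2 tags and 20 copies in each library. It compared the most abundant tag of a gene with its other tags. The 16 other settings chosen at the start and 1 added after seeing the data (transcripts extended by poly(A)) covered matching, sites, strand, scaling, filter and test.

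The members and the 8 pathway and 5 marker lists were chosen with earlier results of these data known. Named were all 10 members, the called genes of each pathway list (up to 4 a direction, or where none was called the 2 with most tags) and, of each marker list, the genes at 0 in both libraries and the 2 with most tags. A gene that this rule names is not reported here. With 2 libraries no likeness of patterns can be measured. The methods were tested on simulated data in which counts varied by counting error only, so variation between replicates was not covered. Python 3.11.15, numpy 2.4.6, pandas 2.3.3, scipy 1.17.1, matplotlib 3.10.9, R 4.3.3, edgeR 4.0.16 and DESeq2 1.42.0 were used.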

Additional observations from a re-analysis of the deposited data

Results flagged for a closer look

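Antisense tags, which the counts of the members leave out, were listed above the limit of 3 copies for 8 of the 10 members. The highest values were 23 copies for Bcl2, 54 for Bcl2l1, 10 for Bax, 43 for Bad and 13 for Bcl2l11, all in GC-1spg, and 77 for Mcl1, 22 for Bak1 and 7 for Bid in GC-2spd (ts). Over all genes, antisense tags were 12.2% and 10.9% of unambiguous copies (GC-1spg first), and all members but Bad, Bcl2l1 and Bcl2l11 lay below this share in both libraries. Bad was far above it, with 81.1% and 78.6% of its copies antisense (43 and 11 copies, against 10 and 3 sense copies). Bcl2l1 had 24.0% and 29.1%, from a tag in the coding sequence of exon 2 at chr2:152829742-152829762 with 45 and 36 copies, and Bcl2l11 had 16.9% and 31.6%. Bcl2 went from 23 to 2 antisense copies, a log2 ratio of -3.42 (exact 95% interval -6.55 to -1.41), while its sense copies had a log2 ratio of -0.28. These ratios were not tested over all genes.

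Bad, antisense: CATGcgcaggctttattataa
Bcl2l1, antisense: CATGggaatcacctcccgcgc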

How the results depend on the processing

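The count of called members was 1 in the fit reported, and 2 with 3′-most sites (Mcl1 joining as 1 higher gene), 2 with sense and antisense tags together (2 lower, Bad joining at a log2 ratio of -1.82 and an FDR of 1.8e-05), and 0 with edgeR's exact test at an assumed variation of 0.2 and 0 at 0.4, so 0 lower in both. Over all genes the count went from 2817 to 1000 (511 higher and 489 lower) at 0.2 and to 244 (108 and 136) at 0.4, and higher genes became 2542 with shared sense tags counted. The split of 1684 higher and 1133 lower became 1292 and 1443 with TMM and 1314 and 1425 with the median of ratios. Bax turned to -0.024 (3′-most sites), -0.10 (both strands), -0.17 (TMM), -0.16 (median of ratios) and -0.083 (unambiguous tags as the total), Bak1 to -0.075 (TMM) and -0.065 (median of ratios), and Bid to -0.38 (3′-most sites). With the longest transcript of each gene Bid kept 0 and 2 copies. The BH3-only sum went to -0.73 with 3′-most sites, and the survival sum to 0.21 with TMM and 0.22 with the median of ratios. Over the 17 alternatives the log2 ratio of Bcl2l11 ranged from -2.37 to -1.84, of Mcl1 from 0.73 to 1.15 and of Bcl2l1 from -0.92 to -0.65. The causes of these changes were not tested. No paired analysis was possible because each cell line has 1 library, and no library could be left out. Tags seen once had been removed, so members near 10 copies, such as Bad, are limited by depth. Bad was also limited by the position of its last CATG sites. In some of its transcripts tags from these sites run into poly(A), and most such tags are shared with other genes.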

Other observations

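Some abundant genes of the surrounding lists passed the FDR threshold without reaching the fold threshold. They were chosen for mention after their values were seen. Bnip3l had 802 and 389 copies (GC-1spg first), a log2 ratio of -0.94 (-1.12 to -0.77) with an Audic-Claverie FDR of 2.2e-26. With tags shared with other genes its copies were 1271 and 524. Bcl2l13 had 310 and 518 copies, a log2 ratio of 0.84 (0.64 to 1.05) with an FDR of 1.6e-15. Birc5 (survivin), a mitotic member of the inhibitors of apoptosis, was the most abundant gene of its list, with 2357 and 1361 copies, a log2 ratio of -0.69 (-0.79 to -0.59) and an FDR of 6.4e-45.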
